A study of Mus musculus with 2 samples.

Results

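The IL-1 family genes examined here were 8 of the 27998 genes in the feature table, taken by their symbols: the cytokines Il1a, Il1b and Il18, the antagonists Il1rn and Il18bp, the decoy receptor Il1r2 and the signalling receptors Il1r1 and Il18r1. Their transcripts were counted in live CD45+ cells sorted from subcutaneous tumors of B16F10, a mouse melanoma line, 14 days after injection. The hosts were C57BL/6 mice of genotype Usp18f/f, the control, or Usp18f/f LysM-Cre, in which Cre placed in the Lyz2 gene is meant to remove Usp18 from myeloid cells. Both groups carry the floxed Usp18 allele, and only the second carries Cre. Each group is 1 library of 4 pooled tumors, made with the 10x Genomics 3' chemistry for a target of 8000 cells, so no difference below has a replicate check. The labels give neither the age nor the sex of the mice, and they do not say which exons are floxed. The question the design poses is how loss of Usp18, the enzyme that strips ISG15 from proteins and damps signalling at the type I interferon receptor, alters the immune cells of the tumor.

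IL-1α and IL-1β are inflammatory cytokines that act through the receptor IL-1R1, and IL-1β and IL-18 are made as precursors that caspase-1 cleaves inside inflammasomes. The pathway carries several natural brakes: IL-1 receptor antagonist (Il1rn) occupies IL-1R1 without signalling, IL-1R2 binds IL-1 without signalling, and IL-18 binding protein (Il18bp) captures IL-18 before it reaches its receptor. In tumors, neutrophils, monocytes and macrophages are the usual sources of IL-1β, whereas IL-18 acts mainly on NK cells and T cells and is known for raising their interferon-gamma output.

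Il1a (ENSMUSG00000027399, chromosome 2, 129299610 to 129309972) and Il1b (ENSMUSG00000027398, chromosome 2, 129364570 to 129371139) are neighbours on the minus strand. Il1rn (ENSMUSG00000026981, chromosome 2, 24336853 to 24351494, plus strand) lies apart on the same chromosome. Il1r2 (ENSMUSG00000026073, 40074079 to 40125231), Il1r1 (ENSMUSG00000026072, 40225080 to 40317257) and Il18r1 (ENSMUSG00000026070, 40465552 to 40500854) follow each other on the plus strand of chromosome 1. Il18 (ENSMUSG00000039217) is on chromosome 9, 50554827 to 50581840, plus strand, and Il18bp (ENSMUSG00000070427) on chromosome 7, 102014885 to 102018690, minus strand (all GRCm38). The annotation places a transcript on the opposite strand over Il1a (Gm14023), Il1b (Il1bos), Il1r2 (Gm16894), Il18 (Bco2 and Tex12) and Il18bp (Numa1, over 80 bases), and one on the same strand over Il1r1 (Gm38070) and Il1r2 (Gm37347). Whether the counting used strand is not given in the sources used here, so counts of these members could hold reads of such partners.

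All 8 members had promoter windows in RefSeq (GRCm38.p6), 13 windows in all, each from 250 bases before to 50 after a transcription start. Letters of 5 motifs were searched on both strands in each window. The 250 bases before the start are printed for the neighbouring cytokine genes, which differed in where and how much they were detected. They are also printed for the 2 antagonists, whose levels differed between the libraries in monocyte-like and macrophage-like cells. Capitals mark letters that matched a motif, and for Il1rn the window furthest upstream of 3 is shown. The windows stand at chr2:129309973-129310222 and chr2:129371140-129371389 on the minus strand, chr2:24336610-24336859 on the plus strand and chr7:102018233-102018482 on the minus strand.
Il1a: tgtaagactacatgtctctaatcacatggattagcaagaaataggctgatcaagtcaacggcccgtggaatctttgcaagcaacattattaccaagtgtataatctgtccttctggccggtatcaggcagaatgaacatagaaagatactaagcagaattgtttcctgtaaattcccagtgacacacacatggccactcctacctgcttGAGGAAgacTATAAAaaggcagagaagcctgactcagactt
Il1b: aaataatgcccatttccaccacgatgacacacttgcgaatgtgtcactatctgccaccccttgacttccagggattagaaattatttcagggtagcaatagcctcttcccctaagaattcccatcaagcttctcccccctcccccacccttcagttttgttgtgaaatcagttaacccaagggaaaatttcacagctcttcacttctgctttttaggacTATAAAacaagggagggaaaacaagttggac
Il1rn: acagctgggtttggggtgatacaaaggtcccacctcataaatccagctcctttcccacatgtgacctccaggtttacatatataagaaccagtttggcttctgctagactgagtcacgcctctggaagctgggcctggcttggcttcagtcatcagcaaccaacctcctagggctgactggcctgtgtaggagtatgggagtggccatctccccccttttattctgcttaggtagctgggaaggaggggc
Il18bp: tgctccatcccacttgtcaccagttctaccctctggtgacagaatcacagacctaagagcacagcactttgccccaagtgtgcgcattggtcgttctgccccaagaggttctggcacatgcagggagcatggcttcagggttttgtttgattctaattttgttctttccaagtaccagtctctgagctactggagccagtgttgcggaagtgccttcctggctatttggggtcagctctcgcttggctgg
The TATA box letters TATAAA began at position -32 from the start of Il1a and at -31 from that of Il1b, and 13.6% of all 32841 windows of this length held them on either strand. On the opposite strand TATAAA also occurred in 1 of the 3 windows of Il1rn (position 14) and in that of Il18 (position -175). The Il1a window also held GAGGAA, a core bound by the myeloid factor PU.1, which 28.3% of windows hold. GAGGAA occurred on the opposite strand in 1 of the 3 windows of Il18r1 too (position -6). GAAA followed after 2 free bases by a second GAAA, the core of an interferon-stimulated response element, occurred in 3.44% of all windows and in none of the 13 windows of the members. TTCNNNGAA, the letters of a STAT site, occurred in 8.30% of all windows, among them the window of Il1r2 (position -111) and 1 of the 3 windows of Il18r1 (positions -219 and -152). The NF-kB consensus, found in 4.51% of windows, occurred in 1 of the 2 windows of Il1r1. Such matches describe letters in these windows only.

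Usp18 and Lyz2 were read first as checks of the labels. Usp18 (ENSMUSG00000030107) went against the label: mononuclear phagocyte-like cells, the monocyte-like and macrophage-like cells together, held 18.9 CPM (UMIs of the gene per 1000000 UMIs of the cells summed) for the control library against 89.4 CPM for the other, 4.74-fold more. A 3' tag outside the deleted exons would not show a deletion, so this value checks the label only in part. Lyz2 (ENSMUSG00000069516), which carries Cre, went with the label, at 9173 and 16.8 CPM in the same cells. The second library is called the library labelled knockout throughout. The control library held 7754 barcodes with 43412346 UMIs (median 2600), and the library labelled knockout 6063 barcodes with 48167632 UMIs (median 4455). After filtering, 6798 and 5356 cells were kept, and 8 barcode sequences occurred in both libraries. The pools also differed in sex: among cells that could be assigned, 36.2% of control cells and 86.0% of those labelled knockout held Xist without Y-linked transcripts. Sex and genotype therefore cannot be told apart in whole-library values. Within-sex values are given for part of the results, and values without them were not split by sex. Cells with Xist and without Y-linked transcripts are called Xist cells, and the reverse Y cells.

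Cells were assigned to classes by which of 8 markers per class they held, and the names mean "like" because they rest on transcripts alone. No member was used as a marker. In each of the classes checked, markers of the class itself led the genes that set it apart and no marker of another class was among its leading 10. Cells were assigned by these same markers, so this outcome was largely built in and is no independent check of the classes. The border between classes is a range: 12.5% of control cells and 15.6% of cells in the library labelled knockout led by a single marker. The control library held 869 monocyte-like, 881 macrophage-like, 513 neutrophil-like, 213 cDC2-like and 139 migratory-DC-like cells. The library labelled knockout held 1267, 1217, 27, 142 and 144 of these. T-cell-like cells numbered 1491 and 883, NK-cell-like cells 274 and 201, and B-cell-like cells 1474 and 443. Intervals in what follows are 95% intervals for counting error only and say nothing about the spread between mice.

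**Figure D1:**
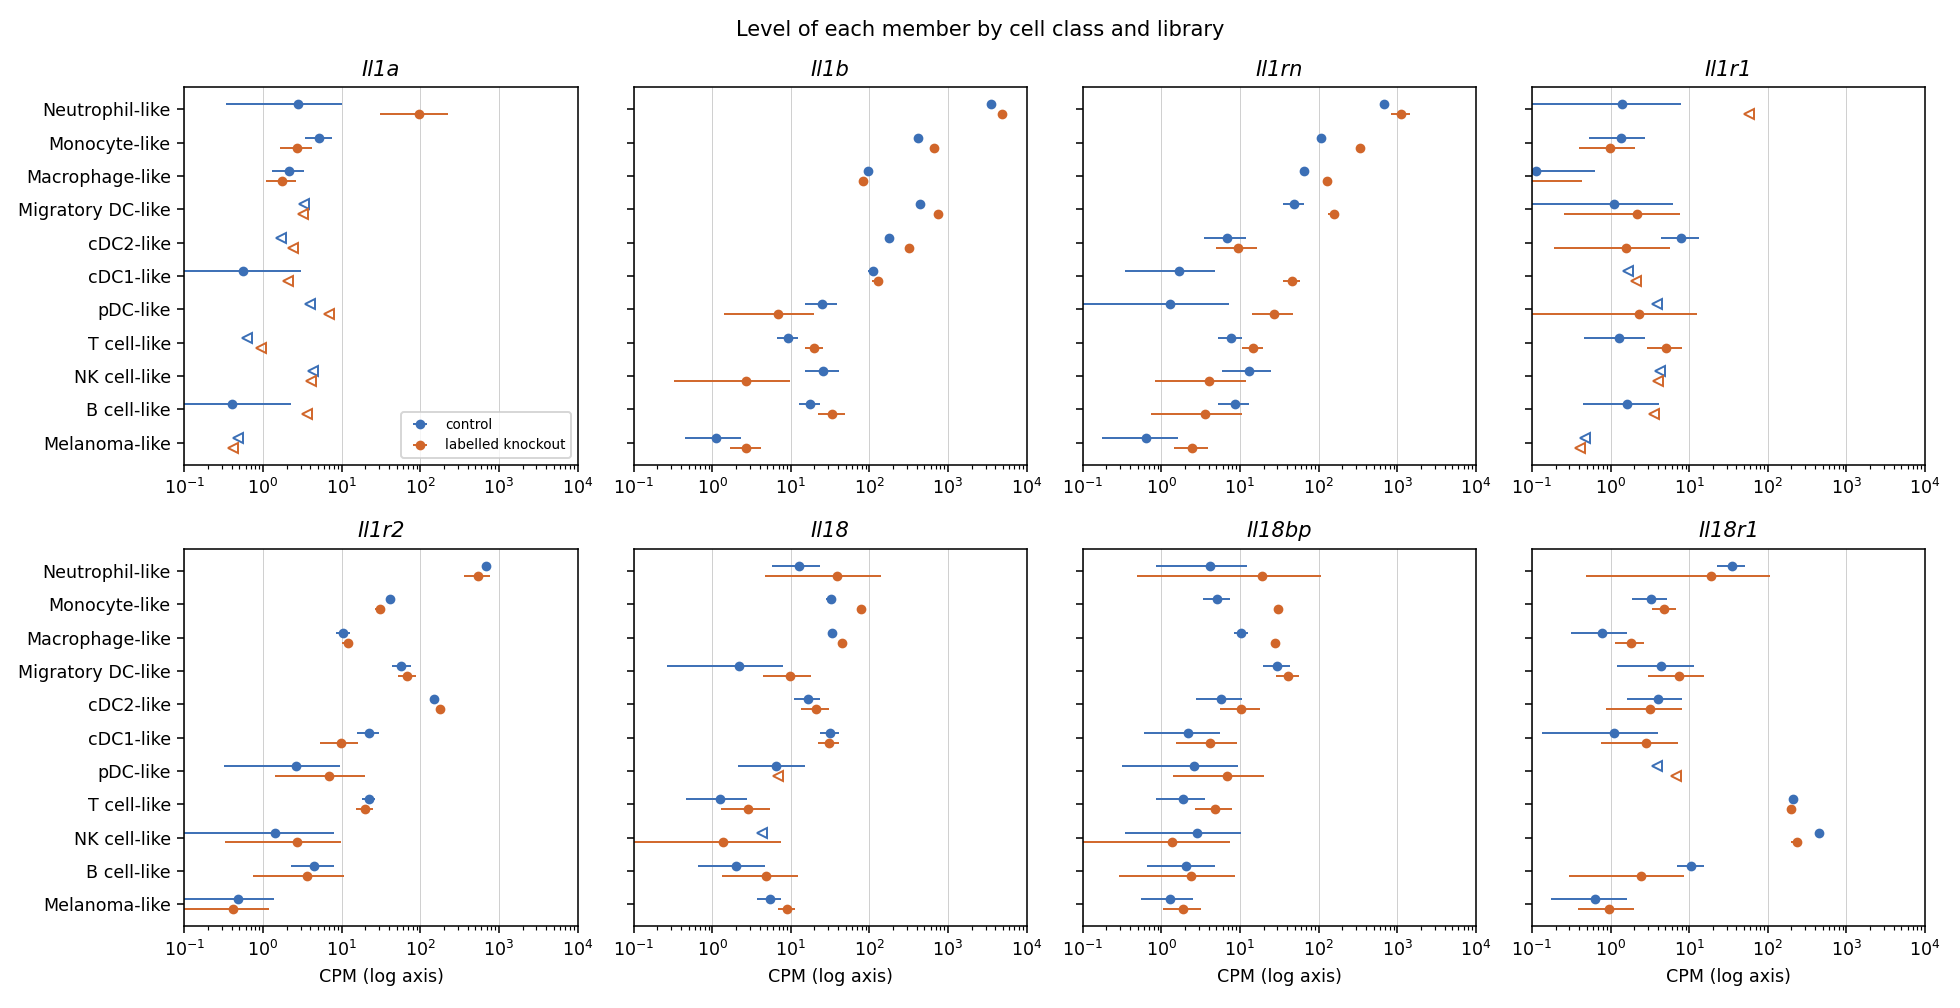
Level of each of the 8 genes (CPM, log axis) in 11 cell classes of the control library (blue) and the library labelled knockout (orange); bars are exact Poisson 95% intervals and open triangles mark the limit that 0 UMIs allows. Il1b, Il1rn and Il1r2 were highest in neutrophil-like cells, Il18r1 stood high in NK-cell-like and T-cell-like cells, and Il1a and Il1r1 stayed low in nearly every class.

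Il1b, the main secreted IL-1 ligand, was found in every myeloid class and was highest by far in neutrophil-like cells. Control levels were 3557 CPM in neutrophil-like cells (3420 to 3698), 446 in migratory-DC-like, 413 in monocyte-like, 178 in cDC2-like, 110 in cDC1-like and 97.0 in macrophage-like cells. The intervals of migratory-DC-like and monocyte-like cells overlapped, as did those of cDC1-like and macrophage-like cells, and the other neighbours in that order were separated beyond counting error. B-cell-like cells, which are not known as a source, stood at 17.5 CPM.

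Between the libraries, Il1b went in opposite directions in the 2 mononuclear phagocyte classes. Monocyte-like cells held 413 CPM (395 to 430, 2152 UMIs) in the control library and 658 CPM (639 to 677, 4641 UMIs) in the library labelled knockout, 1.59-fold more (1.51 to 1.68). Macrophage-like cells held 97.0 CPM (861 UMIs) and 83.3 CPM (1063 UMIs), 1.17-fold less (1.06 to 1.28). Migratory-DC-like cells stood at 446 and 743 CPM (1.67-fold, 1.47 to 1.89) and cDC2-like cells at 178 and 316 CPM (1.78-fold, 1.53 to 2.07). The 27 neutrophil-like cells of the library labelled knockout held 4924 CPM (257 UMIs), 1.38-fold above the control value (1.21 to 1.57). In cDC1-like cells the ratio was 1.16 (0.940 to 1.42), which includes no difference.

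These values differed between cells of the 2 sexes, which was not tested. In monocyte-like cells Il1b was higher in the library labelled knockout both in Xist cells (566 and 683 CPM, 1.21-fold) and in Y cells (347 and 634 CPM, 1.82-fold). In macrophage-like cells the ratio was 0.913 (0.785 to 1.06) in Xist cells and 0.386 (0.301 to 0.490) in Y cells. Over both classes together the Il1b level was 214 and 288 CPM, 1.35-fold higher, but 163 and 114 CPM in Y cells, a reversed direction. Those cells comprised 397 monocyte-like and 445 macrophage-like cells in the control library and 87 and 243 in the other. In cDC2-like cells the difference rested on few cells, with a ratio of 1.06 in Xist cells and 4.36 in Y cells, of which the library labelled knockout had 12. In migratory-DC-like cells the ratios were 1.97 and 0.858.

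More monocyte-like cells held an Il1b UMI in the library labelled knockout, and most of the Il1b UMIs sat in a minority of cells. The share with a UMI was 38.3% and 48.0% at median depths of 5626 and 5283 UMIs per cell. After each cell was thinned to 1000 UMIs it was 18.3% of 853 cells and 28.1% of 1188 cells. In macrophage-like cells, at median depths of 9038 and 8872, the share was 17.9% and 19.1%, or 6.29% and 6.72% thinned. B-cell-like cells, at 1509 and 1765, gave 0.633% and 1.17% thinned as the background. The 10% of monocyte-like cells with the most Il1b held 73.6% and 66.4% of its UMIs, and the top 10% of macrophage-like cells 90.9% of the control UMIs and a similar part of the others. In control neutrophil-like cells, in which 74.3% of cells held a UMI, the top 10% held 39.8%.

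The cells that supplied Il1b transcripts differed between the libraries although the summed level did not differ much. Over all kept cells Il1b measured 197 and 209 CPM, a ratio of 1.06. Neutrophil-like cells held 35.4% of the control library's Il1b UMIs and 3.20% of the other's, and made up 7.55% and 0.504% of kept cells. Monocyte-like cells held 29.9% and 57.9%, and macrophage-like cells had nearly the same part in both, with 13.3% in the second.

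**Figure D2:**
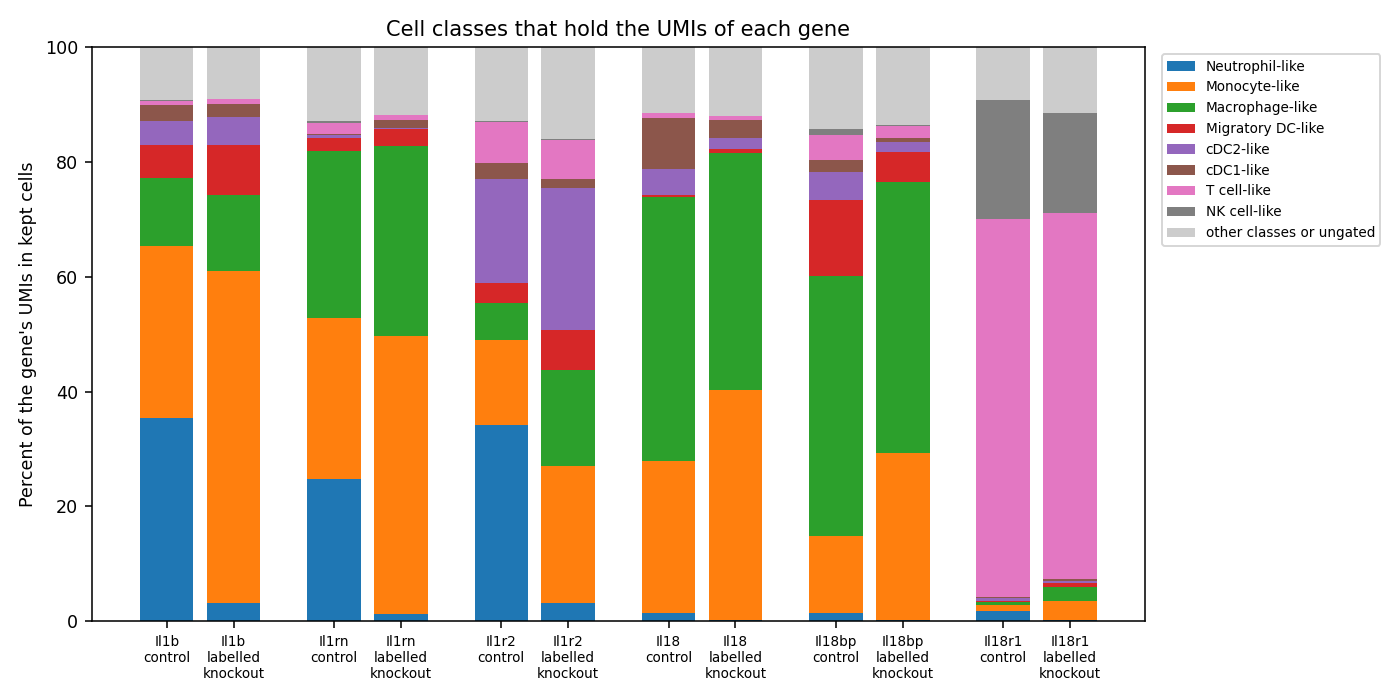
Percent of each gene's UMIs held by each cell class among kept cells, for 6 genes in the control library and the library labelled knockout. The blue neutrophil-like part of Il1b, Il1rn and Il1r2 is large in the control library (35.4%, 24.8% and 34.1%) and near 3% or less in the other, while Il18r1 sits in T-cell-like and NK-cell-like cells in both.

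Il1a, the IL-1 ligand known to be released from damaged cells, was barely detected: 59 and 51 UMIs in all kept cells. Mononuclear phagocyte-like cells held 46 of the control UMIs and 41 of the others, or 3.26 and 2.07 CPM, a ratio of 0.633 (0.405 to 0.987). Neutrophil-like cells went the other way on very few counts, with 2 UMIs in 513 control cells and 5 in 27 cells of the other library (2.79 and 95.8 CPM, ratio 34.3, 5.62 to 360.5). In monocyte-like cells the level was 5.18 CPM (27 UMIs) and 2.69 CPM (19 UMIs), and in macrophage-like cells 2.14 and 1.72 CPM. A single control cell supplied 29.6% of the monocyte-like UMIs there. Among Xist cells the ratio was 0.239 (0.109 to 0.528) in monocyte-like cells, on 14 and 16 UMIs. It was 1.77 (0.526 to 9.31) in macrophage-like Xist cells, on 3 and 20 UMIs. With both classes pooled it was 0.510 (0.279 to 0.969) in Xist cells and 0.223 (0.0252 to 0.926) in Y cells. At this depth only 1.71% and 1.33% of mononuclear phagocyte-like cells held an Il1a UMI. B-cell-like cells held 1 and 0 UMIs.

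Il18, the other inflammasome-cleaved cytokine, had a broader and flatter pattern than Il1b. In the control library macrophage-like (33.6 CPM), monocyte-like (32.8) and cDC1-like cells (31.4) did not differ beyond counting error, and cDC2-like cells followed at 16.5 CPM. Neutrophil-like cells, which led for Il1b, held only 9 Il18 UMIs (12.6 CPM).

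Il18 was higher in the library labelled knockout in monocyte-like cells, at 32.8 CPM (28.1 to 38.1) and 79.2 CPM (72.8 to 86.0), a ratio of 2.42 (2.03 to 2.88). In macrophage-like cells it measured 33.6 and 45.3 CPM, a ratio of 1.35 (1.17 to 1.56). In cDC1-like cells it was 31.4 and 30.7 CPM, with a ratio of 0.975 (0.643 to 1.47). The direction was shared by cells of both sexes: ratios in monocyte-like cells were 1.90 in Xist cells and 2.08 in Y cells, and in macrophage-like cells 1.34 and 1.46. Thinned shares of cells with a UMI were 3.40% and 8.25% in monocyte-like cells, 4.08% and 5.06% in macrophage-like cells, and 0.281% and 0.704% in B-cell-like cells. Melanoma-like cells also held Il18 UMIs, at 5.41 and 8.86 CPM, but the class was unlike in the 2 libraries. It had 134 control cells at a median of 48321.5 UMIs and 353 cells at 1768 in the other. Xist cells were 28.6% and 95.2% of those that could be assigned. Whether these barcodes are tumor cells or other cells with melanoma transcripts was not tested.

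Il1rn, the receptor antagonist, shared with Il1b the lead of neutrophil-like cells but showed the larger difference between the libraries. In the control library it measured 682 CPM in neutrophil-like cells, 106 in monocyte-like, 64.8 in macrophage-like and 48.8 in migratory-DC-like cells, the last 2 with overlapping intervals. Monocyte-like cells held 106 CPM (97.4 to 115) in the control library and 341 CPM (327 to 355) in the library labelled knockout, 3.21-fold more (2.93 to 3.53). In macrophage-like cells it was 64.8 and 129 CPM (1.99-fold, 1.81 to 2.19). Migratory-DC-like cells held 48.8 and 157 CPM (3.21-fold, 2.27 to 4.60), with 19.9% of the higher value from 1 cell. Within sexes that ratio was 2.33 (1.09 to 5.92) in Xist cells and 1.71 (0.649 to 4.10) in Y cells. Neutrophil-like cells held 682 and 1111 CPM, a ratio of 1.63 (1.22 to 2.14) that rests on 58 UMIs in 27 cells. In cDC1-like cells 66 UMIs stood against 3, but 1 cell held 75.8% of them.

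The Il1rn ratio differed between the sexes in macrophage-like cells, a difference that was not tested. In monocyte-like cells the ratio was 2.69 (2.29 to 3.19) in Xist cells and 2.22 (1.73 to 2.82) in Y cells. In macrophage-like cells it was 1.82 (1.55 to 2.13) in Xist cells but 0.885 (0.711 to 1.10) in Y cells, at 48.3 and 42.7 CPM. The thinned share of cells with an Il1rn UMI was 6.92% and 18.3% in monocyte-like cells and 6.53% and 11.3% in macrophage-like cells. In B-cell-like cells it was 0.774% and 0 of 426 cells.

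Set against the ligand it antagonises, Il1rn was more abundant in monocyte-like and macrophage-like cells of the library labelled knockout, over all cells of each class. Each 3' UMI stands for 1 captured transcript, so the ratio of UMIs needs no length. Monocyte-like cells held 0.257 Il1rn UMIs per Il1b UMI (0.234 to 0.282) in the control library and 0.518 (0.493 to 0.545) in the other. Macrophage-like cells held 0.668 (0.600 to 0.743) and 1.55 (1.43 to 1.68), so that antagonist transcripts outnumbered Il1b transcripts only in the second. In neutrophil-like cells the ratio was 0.192 and 0.226 and in cDC2-like cells 0.0385 and 0.0302, each with overlapping intervals. In migratory-DC-like cells it was 0.109 and 0.211. Over all kept cells it was 0.274 and 0.619. The ratios of UMIs were not split by sex. Between the libraries, monocyte-like Xist cells differed 2.69-fold in Il1rn and 1.21-fold in Il1b. Monocyte-like Y cells differed 2.22-fold (1.73 to 2.82) and 1.82-fold (1.60 to 2.07), with overlapping intervals. In macrophage-like cells the 2 folds were 1.82 and 0.913 in Xist cells and 0.885 and 0.386 in Y cells.

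Within single macrophage-like cells, Il1rn was detected more often in cells with an Il1b UMI than in cells without one. After thinning, 17 of 73 Il1b-positive macrophage-like cells of the library labelled knockout (23.3%) also held Il1rn, against 10.5% of the cells without Il1b. The control library had 7 of 54 cells against 6.09%. In monocyte-like cells the shares were 20.7% and 17.3% in the library labelled knockout and 10.3% and 6.17% in the control library. In control neutrophil-like cells the order was the opposite, with 34.6% against 40.6%. These are descriptions of cells of 1 library each, and the positive macrophage-like cells of the library labelled knockout were shallower before thinning (median 5388 UMIs against 10349).

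Over all monocyte-like cells Il18bp, the secreted trap for IL-18, had the largest ratio between the libraries of any member. Monocyte-like cells of the control library held 5.18 CPM (27 UMIs) and those labelled knockout 30.7 CPM (217 UMIs), a ratio of 5.94 (3.97 to 9.22). Macrophage-like cells held 10.4 and 27.6 CPM (2.66-fold, 2.11 to 3.38). The highest control level was in migratory-DC-like cells, at 30.0 CPM, and there the other library stood at 40.7 CPM (ratio 1.36, 0.809 to 2.32). Within sexes the ratio in macrophage-like cells was 3.15 in Xist cells and 2.14 in Y cells. In monocyte-like Xist cells it was 3.13 (1.71 to 6.40), which overlapped the interval of Il1rn there (2.29 to 3.19). Il1a differed by more in those cells, 4.19-fold lower (1.89 to 9.16) on 14 and 16 UMIs. Thinned shares of Il18bp-positive cells were 0.234% and 2.36% in monocyte-like cells and 1.28% and 3.96% in macrophage-like cells. B-cell-like cells gave 0.211% and 0.469%. The control share in monocyte-like cells rests on 2 thinned cells, and without thinning the control intervals of monocyte-like (3.41 to 7.53 CPM) and B-cell-like cells (0.661 to 4.75 CPM) overlapped. Per Il18 UMI, monocyte-like cells held 0.158 and 0.388 Il18bp UMIs, and macrophage-like cells 0.309 and 0.609.

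Il1r2, the decoy receptor, had its highest levels in neutrophil-like cells (695 CPM in the control library) and cDC2-like cells (151 CPM), followed by migratory-DC-like (57.7) and monocyte-like cells (41.6). Among T-cell-like cells it was highest in cells with Foxp3, the defining factor of regulatory T cells, at 55.8 and 79.2 CPM, where 14.1% of 142 and 17 of 100 cells held a UMI. In neutrophil-like cells the libraries stood at 695 and 536 CPM (ratio 0.772, 0.508 to 1.13), not separable at 28 UMIs in the second. In cDC2-like cells they stood at 151 and 179 CPM (1.19, 0.990 to 1.42). Monocyte-like cells held 41.6 and 30.9 CPM (0.742, 0.612 to 0.900), but a single cell gave 21.2% of the control UMIs and 16.5% of the others, and the direction split by sex. Over all kept cells Il1r2 was 40.0 and 23.8 CPM, 1.68-fold lower, and neutrophil-like cells held 34.1% and 3.07% of its UMIs.

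**Figure D3:**
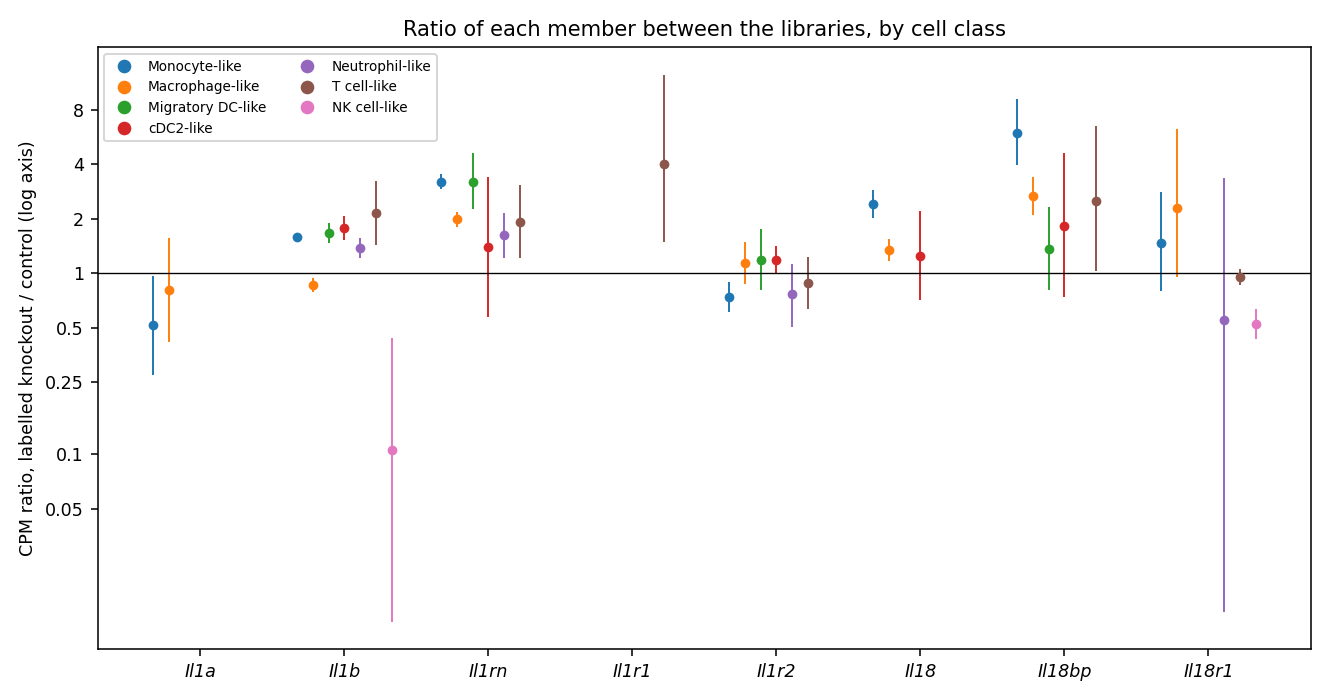
Ratio of CPM in the library labelled knockout over the control library (log axis) for each gene in 7 cell classes, where both libraries together held at least 20 UMIs; bars are exact 95% counting intervals. Il1rn and Il18bp lie above 1 in monocyte-like and macrophage-like cells, Il1b lies on both sides of 1, and Il18r1 lies below 1 in NK-cell-like cells.

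**Figure D4:**
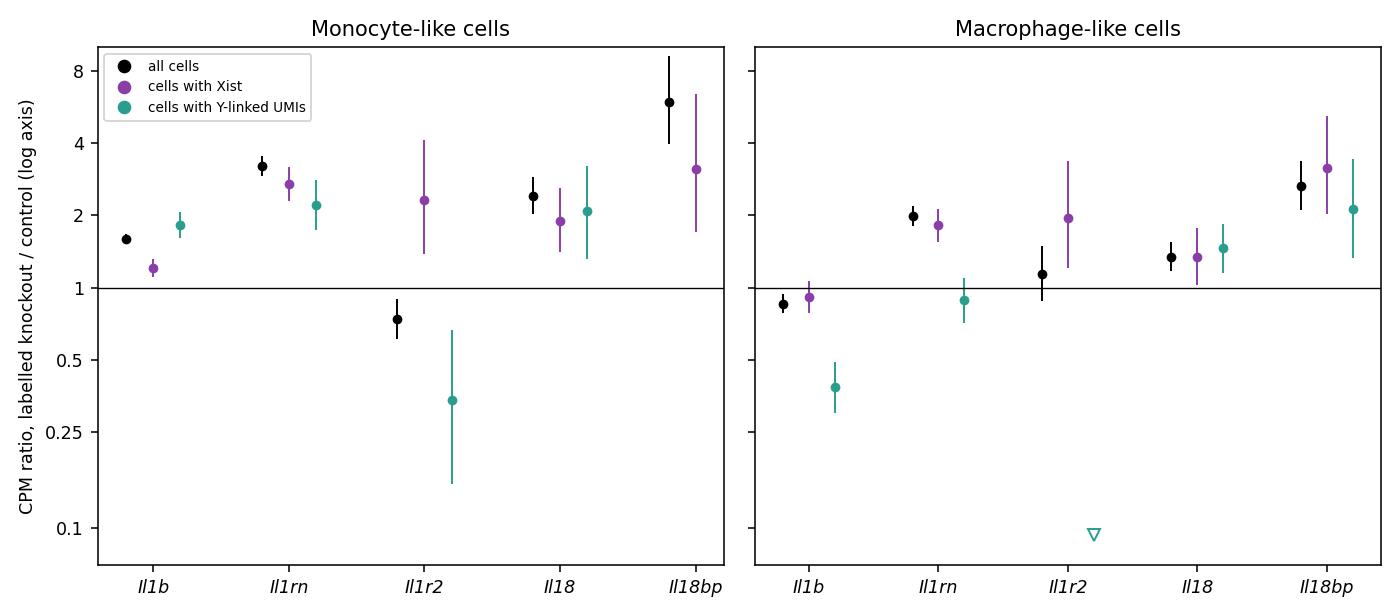
The same ratio in monocyte-like and macrophage-like cells for 5 genes, over all cells, in Xist cells and in Y cells; points with fewer than 20 UMIs are left out, bars are 95% counting intervals and the open triangle is a limit from 0 UMIs. Il18 and Il18bp stay above 1 in each group drawn, while Il1r2 changes side between the sexes. In macrophage-like cells Il1b is lowest in Y cells, and Il1rn there has an interval that includes 1.

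Il18r1, the ligand-binding chain of the IL-18 receptor, sat mostly in lymphocytes: T-cell-like cells held 65.9% and 63.7% of its UMIs and NK-cell-like cells 20.8% and 17.4%. In NK-cell-like cells it measured 446 CPM (397 to 498, 311 UMIs) in the control library and 234 CPM (200 to 271, 172 UMIs) in the library labelled knockout, 1.91-fold lower (1.58 to 2.31). The value was lower in Xist cells (364 and 224 CPM, ratio 0.615) and in Y cells (424 and 231 CPM, ratio 0.544). NK-cell-like cells with at least 4 phagocyte markers made up 0.365% and 5.47% of the class, and without them Il18r1 was 444 and 262 CPM. The share of NK-cell-like cells with a UMI was 61.7% and 52.2%, or 37.2% and 25.9% thinned, at median depths of 2189 and 2786. Macrophage-like cells, thinned alike, gave 0 of 858 cells and 0.0921%.

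In T-cell-like cells as a whole Il18r1 did not differ beyond counting error, at 208 and 199 CPM (ratio 0.958, 0.865 to 1.06). The subsets went in different directions, and that difference was not tested. Cells with Cd8a or Cd8b1 held 143 and 174 CPM (1.22-fold, 1.03 to 1.44), cells with Cd4 317 and 241 CPM (0.760, 0.570 to 1.00) and cells with Foxp3 191 and 125 CPM (0.658, 0.472 to 0.908). Control neutrophil-like cells also held Il18r1, at 34.9 CPM (25 UMIs in 15 cells).

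Il1r1, the signalling receptor for IL-1, was nearly absent from these CD45+ cells, with 35 and 31 UMIs in all. T-cell-like cells as a whole held 6 and 16 UMIs (1.26 and 5.06 CPM, a ratio of 4.01 with an interval of 1.49 to 12.5). The cDC2-like cells held 14 UMIs in the control library and 2 in the other, and 1 cell gave 35.7% of the 14. No fibroblast-like or endothelial-like cells were found in either library, so the stromal cells known to carry IL-1R1 were not measured here.

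Part of the myeloid members' UMIs in T-cell-like cells sat in cells that also held phagocyte transcripts. In the library labelled knockout, 36 of 883 T-cell-like cells (4.08%) held at least 4 phagocyte markers, and these held 32 of the 63 Il1b UMIs and 39 of the 46 Il1rn UMIs of the class. Without them T-cell-like Il1b stood at 10.3 CPM in place of 19.9, and Il1rn at 2.33 CPM in place of 14.6. Among control cells 9 of 1491 did so, with 8 of 44 Il1b UMIs, and without them Il1b stood at 7.75 CPM in place of 9.26.

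The ratios of the members were then set beside those of all genes, over all cells of each class and not split by sex. A gene was counted as higher or lower when log2 of (CPM + 5) differed by at least 2-fold, among genes with at least 20 UMIs. The 5 CPM added draws ratios of low genes towards 1. A low gene can thus differ by 2-fold in CPM and not be counted, as Il1r1 in T-cell-like cells. In monocyte-like cells 7 of the 8 members were measured and 3 were higher (Il1rn, Il18 and Il18bp), against 1.75% of all 10314 genes, and 0 were lower, against 0.175%. Their median log2 ratio was 0.67, that of all genes -0.05. In macrophage-like cells 1 of 7 was higher (Il18bp), against 0.524% of genes, and 0 were lower, against 0.133%, with medians of 0.23 and -0.02. In both classes together 2 of 7 were higher (Il1rn and Il18bp), against 0.772%, and 0 were lower, against 0.0849%. In migratory-DC-like cells 1 of 4 was higher (Il1rn), against 3.29%, and 0 lower, against 1.15%. In cDC1-like cells 1 of 4 was higher (Il1rn, mostly from 1 cell), against 0.772%, and 0 lower, against 0.561%. In cDC2-like cells 0 of 5 passed, against 0.928% higher and 0.623% lower. In NK-cell-like cells 1 of 2 was lower, against 2.56%, with 0 higher, against 2.08%, and the gene was Il1b with 18 and 2 UMIs, 83.3% of the 18 in 1 cell. In B-cell-like cells 1 of 3 was lower (Il18r1, 26 and 2 UMIs), against 1.19%, and 0 higher, against 0.298%. In T-cell-like cells 0 of 6 passed in either direction, against 0.366% higher and 0.145% lower. Neutrophil-like cells also had 0 of 4, against 5.34% and 23.1%, and the median of all genes there was shifted to -0.33. That class held 716609 UMIs in the control library and 52191 in the other. Its background therefore rests on few counts per gene in the second, and the members are not ranked against it.

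The members also differed in how they followed interferon-stimulated genes from cell to cell. Monocyte-like and macrophage-like cells of each library were cut into 3 equal bins by their share of UMIs from a list of 20 interferon-stimulated genes. The bins are ranges of a score and not cell types. In monocyte-like cells of the library labelled knockout, Il18bp measured 6.95, 12.4 and 75.1 CPM from the lowest to the highest bin. Il18 measured 42.1, 69.0 and 130 CPM and Il1rn 220, 187 and 628 CPM. Il1b had the opposite order, at 817, 617 and 527 CPM. In the control library Il18bp was 2.96, 1.13 and 11.3 CPM, Il18 21.9, 31.8 and 44.3 CPM, Il1rn 149, 73.2 and 98.2 CPM, and Il1b 444, 399 and 396 CPM. The bins of the 2 libraries are not matched, since the 20 genes summed to 53.8, 385 and 2439.8 CPM in the control bins and to 579.8, 2322 and 17692 CPM in the others. The share of Xist cells among control monocyte-like cells was 28.9%, 29.2% and 45.5% along the bins, and its part was not tested.

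In macrophage-like cells of the library labelled knockout both antagonists were likewise highest in the highest bin, but control Il1rn was not. In the library labelled knockout Il18bp was 15.6, 14.5 and 58.8 CPM, Il1rn 83.0, 91.7 and 232 CPM and Il18 32.4, 38.7 and 69.2 CPM. Il1b here was higher in each bin up, at 43.5, 80.5 and 135 CPM, the reverse of its order in monocyte-like cells. In the control library Il18bp was 3.31, 8.46 and 19.3 CPM and Il18 32.0, 34.4 and 34.1 CPM with overlapping intervals. Control Il1rn was highest in the lowest bin, at 96.8, 40.5 and 62.6 CPM, and control Il1b measured 85.4, 82.5 and 125 CPM. The share of Xist cells moved with the bins in macrophage-like cells of the library labelled knockout (61.9%, 74.1% and 86.3%), as did depth (median 10042, 10009 and 6864 UMIs), and their part was not tested.

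**Figure D5:**
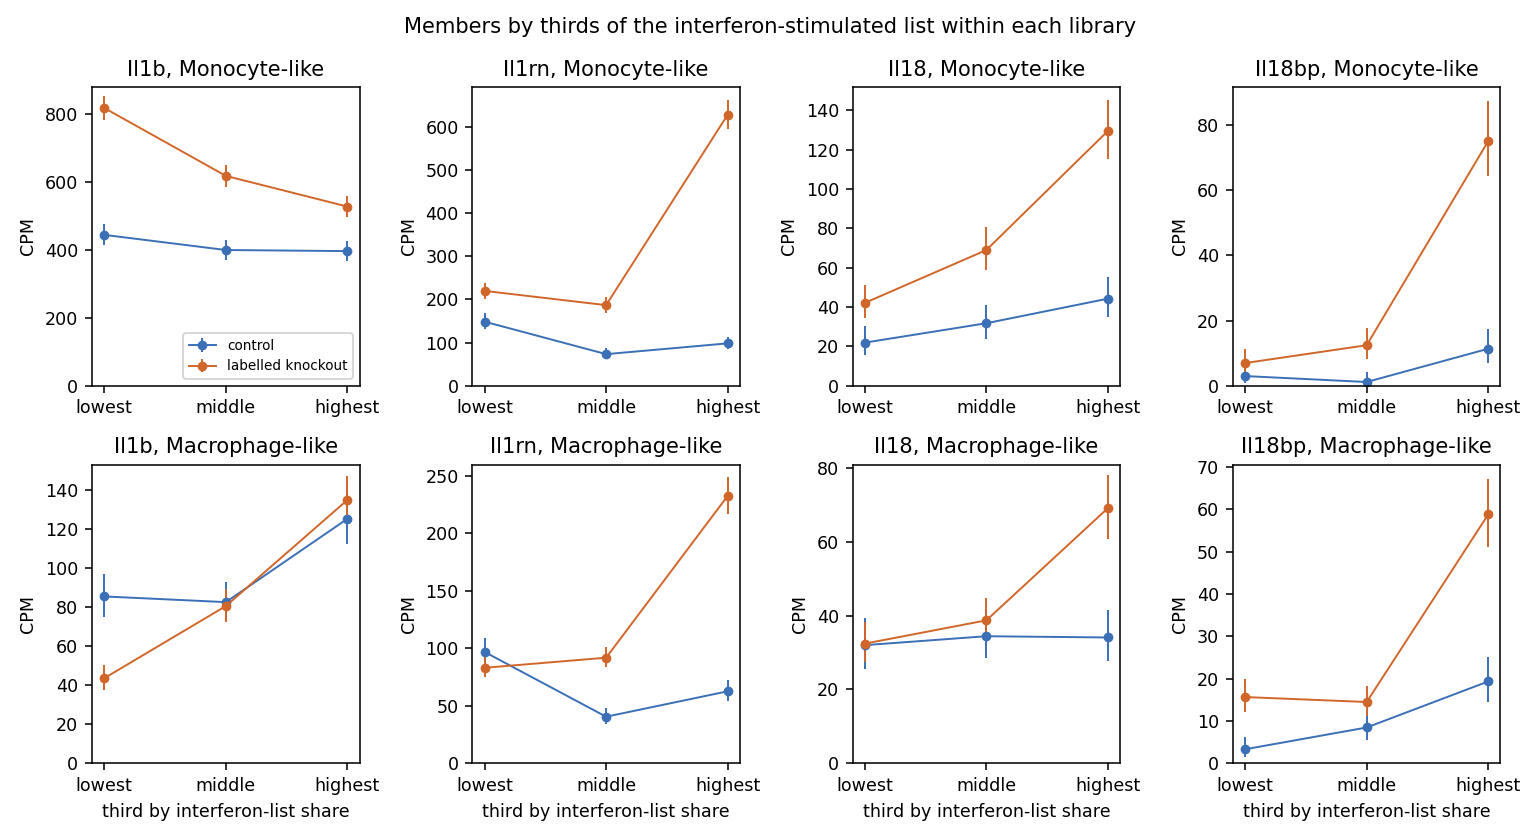
CPM of Il1b, Il1rn, Il18 and Il18bp in 3 bins of monocyte-like (top) and macrophage-like cells (bottom) ordered by the share of UMIs from 20 interferon-stimulated genes, cut within each library; bars are exact Poisson 95% intervals. In the library labelled knockout (orange) Il18bp, Il18 and Il1rn are highest in the highest bin, and Il1b falls along the bins in monocyte-like and rises in macrophage-like cells.

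Of 50 other genes of the pathway listed for this purpose, 46 were in the feature table. In mononuclear phagocyte-like cells 42 were measured and 0 passed 2-fold in either direction, against 0.772% of all genes higher and 0.0849% lower, with a median log2 ratio of -0.06 against -0.02 for all genes. Casp4, the caspase of the non-canonical inflammasome, measured 29.5 and 54.1 CPM, the inflammasome adaptor Pycard 363 and 478, Casp1 37.5 and 51.0 and the IL-1 receptor adaptor Myd88 77.4 and 101. The inflammasome gene Nlrc4 was lower, at 10.6 and 6.76 CPM, as were the signalling brake Irak3, at 33.3 and 24.4, and Lcn2, an IL-1-inducible siderophore-binding protein, at 10.6 and 4.29. Lcn2 was also among the 10 genes that led neutrophil-like cells, which made up 7.55% and 0.504% of kept cells, and their part in its level was not tested. Il6, another IL-1-inducible gene, had 7 UMIs in the control library and 83 in the other (0.497 and 4.19 CPM).

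In T-cell-like cells 1 of 33 measured pathway genes passed 2-fold, the chemokine Cxcl2, lower at 47.6 and 16.1 CPM, against 0.145% of all genes lower and 0.366% higher. Ifng, the cytokine that IL-18 is known to induce, measured 96.4 and 176 CPM, a ratio of 1.82 (1.61 to 2.07). Cxcl3 stood at 10.5 and 4.11 CPM, 2.56-fold lower (1.37 to 5.14) without the 5 CPM added. Il1rl1 had 57 and 23 UMIs. Mononuclear phagocyte-like cells held far more of both chemokines, with Cxcl2 at 738 and 612 CPM and Cxcl3 at 165 and 177 CPM. The part of transcripts from other cells in their T-cell-like levels was not tested. In NK-cell-like cells 0 of 28 passed, against 2.08% of all genes higher and 2.56% lower, and the median of the list was -0.35 against -0.12 for all genes. The ubiquitin ligase Peli1 measured 325 and 183 CPM there, Txnip, a partner of NLRP3, 390 and 223, Tollip 34.4 and 17.6 and Naip5 25.8 and 10.9 CPM, the last 2 with intervals that include no difference.

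Across 21 class-by-library points with at least 50 cells, the gene most like each member was named by Pearson's r of log2 (CPM + 5) among 11033 genes. For Il18r1 these were Il2rb (0.98), Fasl and Skap1, for Il1b Riok3 (0.92), Snap23 and Mcl1, and for Il1rn Pla2g7 (0.91), Ptgs2 and Gla. For Il1r2 they were Mcemp1 (0.89), Cass4 and Pram1, for Il18 Slamf8 (0.91), Capza2 and Lyz1, and for Il18bp Adgrg6 (0.88), Pdlim4 and Flrt3. For Il1a (Abcd2, 0.94) and Il1r1 (Il1rl1, 0.71) the values rest on 110 and 66 UMIs. Among the members themselves Il1b and Il1r2 were the most alike pair (0.84), followed by Il1b and Il1rn (0.77), and Il18 and Il18r1 the least alike (-0.51). The points share 2 libraries and their depth, and the correlations are descriptions.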

How the data were processed

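Each library was deposited as unnormalised UMI counts, produced by the authors with Cell Ranger 3.0.1 on mm10, per the submitters' processing notes; the annotation is not given in the sources used here. Both libraries were read in Python 3.11.15 with numpy 2.4.6, scipy 1.17.1 and pandas 2.3.3, and figures drawn with matplotlib 3.10.9. Barcodes needed 200 detected genes or more, and no more than 10% of UMIs from mitochondrial genes. Each took the class with most of its 8 markers detected (at least 2, no tie). Barcodes with 4 or more markers of a distant lineage (288 control, 373 labelled knockout) were removed as mixed; no doublet caller was run. Ungated cells were 6.94% and 8.42%.

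UMIs were summed per class and library and given as CPM with exact Poisson 95% intervals; ratios of CPM carry exact conditional binomial intervals, shares of cells Clopper-Pearson intervals. All cover counting error only. Where a class held 0 UMIs, the limit marked in figures and behind a lower bound is 3 UMIs, a one-sided limit below the upper end of the two-sided exact interval. With 1 library per group no test was made. Background counts used log2 of (CPM + 5) for genes with at least 20 UMIs. The computation was tested on simulated counts. Coordinates came from GENCODE M21 (98.7% of features matched by identifier) and promoters from RefSeq.

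The members and lists were chosen with earlier results of these data known. Named were all 8 members, the pathway genes with the 8 largest log2 ratios in mononuclear phagocyte-like cells and the 4 largest in T-cell-like and in NK-cell-like cells, and the 3 genes most like each member. Alternatives tried were another class assignment, a stricter gate, mixed barcodes kept, a 5% mitochondrial limit, a pseudocount of 1, per-cell means, thinning to 1000 UMIs, centring on the median gene, subtraction of 5% free RNA, leaving out the top cell, and cells with Xist or Y-linked transcripts alone. Values of 2 further T-cell subsets are not reported here.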

Additional observations from a re-analysis of the deposited data

Results flagged for a closer look

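In monocyte-like and macrophage-like cells Il1r2 had opposite directions in the cells of the 2 sexes (Xist cells and Y cells), which is why it stands here, and the difference was not tested. In monocyte-like cells it was 2.31-fold higher in the library labelled knockout among Xist cells (13.5 and 31.2 CPM, 16 and 177 UMIs) and 2.93-fold lower among Y cells (51.0 and 17.4 CPM, 131 and 9 UMIs). In macrophage-like cells it was 1.96-fold higher among Xist cells (9.70 and 19.0 CPM). Among macrophage-like Y cells 53 UMIs in the control library stood against 0 in the other. Taken against a limit of 3 UMIs this is at least 10.7-fold lower, and the exact interval of the ratio begins at 8.41-fold lower. The split was not shared by other classes: in migratory-DC-like cells the ratio was 0.492 (0.218 to 1.25) in Xist cells and 6.59 (3.72 to 11.9) in Y cells, the latter from 34 UMIs in 17 cells, and in cDC2-like cells it was 1.05 and 2.11. A single cell gave 21.2% and 16.5% of the Il1r2 UMIs of monocyte-like cells in the 2 libraries.

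Il1b had opposite directions in the 2 mononuclear phagocyte classes, 1.59-fold higher in monocyte-like cells and 1.17-fold lower in macrophage-like cells of the library labelled knockout. This difference was not tested either.

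With both classes pooled, Il1b was 1.25-fold higher in Xist cells and 1.43-fold lower in Y cells of the library labelled knockout, and Il1r2 was 2.18-fold higher and 9.63-fold lower. The mix of monocyte-like and macrophage-like cells among Y cells differed between the libraries, so these pooled values hold that difference too. Among T-cell-like cells, Il18r1 was 1.22-fold higher in cells with Cd8a or Cd8b1 and 1.52-fold lower in cells with Foxp3. These differences were not tested.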

How the results depend on the processing

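No paired analysis was possible because each group is 1 library with no replicate number, and for the same reason no replicate could be left out. Of 88 alternative values for the log2 ratios of the 8 members in their main class, 72 stayed within the counting interval of the value reported, 15 moved outside it and 1 reversed. The reversal was Il1b in mononuclear phagocyte-like cells (0.42), at -0.50 in Y cells. It moved to 0.32 in Xist cells, 0.34 with classes by nearest expression profile, 0.35 with a mitochondrial limit of 5%, 0.57 as a mean per cell and 0.62 after thinning. Il1rn (1.30) moved to 1.18 in Xist cells and 0.062 in Y cells. The pooled Y cells were 397 monocyte-like and 445 macrophage-like cells in the control library and 87 and 243 in the other. The part of this mix in the pooled Y-cell values was not tested. Il18 (0.70) moved to 0.96 with the limit of 5%. Il18bp (1.33) moved to 1.71 with that limit, 1.65 with a pseudocount of 1, 1.63 as a mean per cell, 1.70 after thinning and 0.78 in Y cells. With a pseudocount of 1, Il1a (-0.23) moved to -0.48 and Il1r1 in T-cell-like cells (0.68) to 1.42. For Il1r2 in neutrophil-like cells and Il18r1 in T-cell-like cells no alternative that gave a value moved outside the interval. Fewer than 20 UMIs or 20 cells left no value for Il1a after thinning, for Il1r2 within sexes, and for Il1r1 after thinning, with the limit of 5%, within sexes or without its top cell. Other causes were not tested.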
